A study of Sus scrofa domesticus with 150 samples.

Results

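The wound edge 1 day after wounding was compared with unwounded skin in a study of 6 domestic pigs. The 6 edge biopsies of day 1 and the 6 samples of whole skin excised on day 0 were selected by the day and the location that the sample names carry, so no measured value entered the selection, and together they made up 12 of the 150 RNA-seq samples of the time course. The animals were females of a Yorkshire-mix breed with no genetic modification given, and their age was not given. In each animal, 12 circular wounds were cut through the full thickness of the back skin on day 0, covered with Telfa Clear and Tegaderm dressings, and given no further treatment. The excised skin of all 6 animals served as day 0, whereas the edge biopsies of day 1 came from animals 1, 2 and 3, with wounds A and L of each. The center of the same 6 wounds was sampled as well on that day and was used here for 1 comparison.

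A wound edge is the rim of remaining skin from which repair starts. In the hours after injury, damaged keratinocytes and resident immune cells release interleukin-1 and chemokines, neutrophils leave the vessels and monocytes follow them. Keratinocytes at the rim then switch on a set of stress keratins, loosen their anchors, digest matrix with metalloproteinases to crawl under the clot, and divide behind the migrating front, while new collagen is laid down only later.

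Several features limit these samples as a model of the edge. Day 0 samples were pieces of the whole excised skin and edge samples were small punch biopsies, so that a different share of epidermis, dermis, follicles and fat in the piece cannot be told apart from wounding. In bulk RNA, fewer cells of a type and less RNA per cell also cannot be told apart. No wound was sampled immediately after cutting, the labels give no clock time of sampling, and the 2 wounds of an animal were treated as separate samples although they share the animal. Defining genes of skin were present in all 12 libraries. The basal keratin KRT5 was at 5966, 8139 and 10627 CPM (counts per 1e6 counted reads; 3 values in a row are the lowest, the median and the highest of 6 samples throughout) on day 0 and 8246, 13161 and 16234 CPM at the edge, the suprabasal keratin KRT10 at 8890.4, 18069 and 27617 and 11696, 15642 and 20625 CPM, and the dermal collagen COL1A1 at 12313, 19115 and 43542 and 1604, 5553 and 7436 CPM. Skeletal muscle genes summed to only 17.4 to 29.6 CPM on day 0 and 9.05 to 16.8 CPM at the edge.

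Libraries held 15698806 to 21415735 counted reads on day 0 and 13685366 to 18503290 at the edge. Pearson's r between replicates on the log2(1 + count) scale was 0.961 to 0.984 within day 0 skin and 0.969 to 0.982 within the edge. One day 0 library stood apart, that of animal 2, whose hair follicle genes summed to 60.6 CPM against 4642 to 17463 CPM in the other 5, and results on follicle genes are given with and without it. Day 0 skin of animals 1 to 3 and of animals 4 to 6 differed in 0 of 15000 genes by edgeR's quasi-likelihood test, with 550 genes at an unadjusted p below 0.05.

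After 1 day the edge differed from unwounded skin across much of the transcriptome. Of 14667 genes tested with edgeR's quasi-likelihood test, 7379 (50.3%) passed an adjusted p of 0.05. Of these, 3873 (26.4% of the genes tested) were higher at the edge and 3506 (23.9%) were lower. At least 2-fold changes were found in 1298 genes (8.85%) upward and 1518 (10.3%) downward. With the animal as block, 4774 genes passed (32.5%), 2536 of them higher (17.3%) and 2238 lower (15.3%). Animals 4 to 6 gave skin but no day 1 wound, so the fit with the block rests on the skin and wounds of animals 1 to 3. Pairing and the loss of day 0 samples cannot be told apart in the calls lost with the block. In 3669 genes (25.0%) the 12 CPM values fell into non-overlapping groups, with the edge above in 2613 (17.8%) and below in 1056 (7.2%). These shares are the background against which every gene list below is to be read. Without composition scaling of the library totals, 60.9% of the called genes were higher instead of 52.5%. The non-overlap counts rest on CPM without this scaling, whose factors were 1.012 to 1.069 at the edge and 0.903 to 1.008 on day 0. Relative to the fit, they therefore lean toward the edge above.

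Among genes with a mean log2 CPM of at least 3 and no overlap between the groups, the steepest rises belonged to chemokines, alarmins, enzymes of activated myeloid cells and the interstitial collagenase. Log2 fold changes of the 12 leading genes of this selection ran from 7.30 to 10.97, and all 12 passed with the animal as block. CXCL8, the main chemokine that draws neutrophils, had 0, 0.0989 and 0.573 CPM on day 0, 17 counts in all 6 libraries together, and 42.7, 249 and 1161 CPM at the edge (log2 fold change 10.97 ± 1.097 (SE), adjusted p = 1.5e-05). MMP1, the collagenase that keratinocytes use to cut native collagen, had 0.300, 0.498 and 0.628 and 515, 616 and 915 CPM (log2 fold change 10.39 ± 0.25 (SE), adjusted p = 2.6e-11), the narrowest edge range among the 12. The deposited table places CXCL8 on contig LUXX01018793.1 at 3456350 to 3459574 and MMP1 on contig LUXX01036107.1 at 2458848 to 2501670, in a genome build not given in the sources used here. IL1B, the secreted inflammatory interleukin-1, had 6 counts in all of day 0 and 5.202, 31.2 and 81.5 CPM at the edge (log2 fold change 9.04 ± 0.94 (SE), adjusted p = 1.8e-05).

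The alarmins S100A9 and S100A8, calcium-binding proteins carried in bulk by neutrophils and also made by stressed keratinocytes, rose from 0.899, 2.29 and 4.11 to 307, 616 and 2262 CPM (log2 fold change 8.71 ± 0.76 (SE), adjusted p = 6.3e-06) and from 0.631, 1.89 and 3.19 to 137, 203 and 1203 CPM (log2 fold change 7.89 ± 0.799 (SE), adjusted p = 1.5e-05). In both genes the 2 highest libraries were the A wounds of animals 1 and 2. ARG1, which degrades arginine and is a marker of neutrophils in some species and of repair macrophages, had 0, 0.923 and 1.78 CPM on day 0 and 60.7, 262 and 680.3 CPM at the edge (log2 fold change 8.23 ± 0.79 (SE), adjusted p = 1.1e-05). ACOD1, the itaconate-making enzyme of activated macrophages, and GPR84, a fatty acid receptor of myeloid cells, had 4 and 10 counts in all of day 0, and edge medians of 21.01 and 49.7 CPM (log2 fold changes 9.07 and 8.97). The acute phase protein SAA2 (log2 fold change 7.91), the macrophage chemokine CCL3 (7.897), serine dehydratase SDS (7.396) and lactoperoxidase LPO (7.303) completed the group. Counts of CCL3 and ACOD1 are uncertain, since the table holds 3 and 2 gene models under these names, and SAA2 belongs to a family of close copies.

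**Figure D1:**
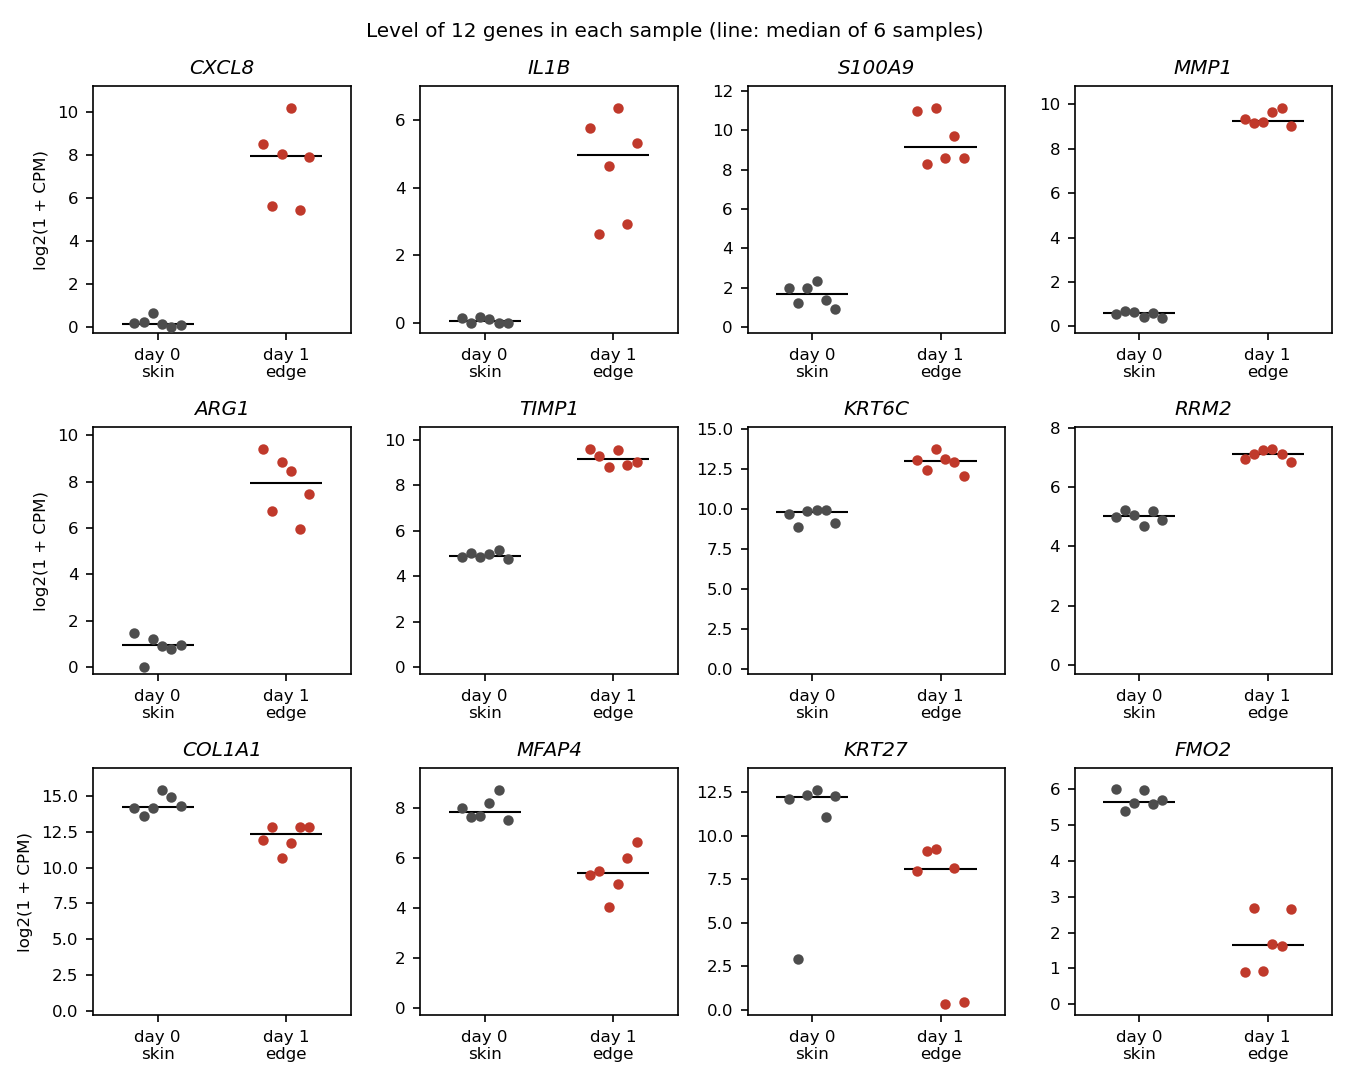
Levels of 12 genes as log2(1 + CPM) on the y axis, with 1 point per sample for the 6 day 0 skin samples (grey) and the 6 day 1 edge samples (red); the line is the median and the y axes differ. CXCL8, MMP1, S100A9 and TIMP1 separate completely, the edge values of FMO2, COL1A1 and MFAP4 lie below day 0, and 1 day 0 sample stands far below the others for KRT27.

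Genes of neutrophils rose together. Of 14 tested genes of the neutrophil list, 11 were higher (12 with the animal as block), 0 were lower and the median log2 fold change was 4.26, against -0.01 over all genes tested. Against this stood 26.4% of all genes tested that were higher (17.3% with the block). The edge lay entirely above day 0 in 11 of the 14, against 17.8% of all genes tested. CLEC4E, a receptor for glycolipids of microbes and of dead cells, had 0 counts in day 0 skin and 1103 at the edge, at least 412-fold higher against a floor of 3 counts over the group. CSF3R, the receptor for granulocyte colony-stimulating factor, rose from 1.201, 2.16 and 5.31 to 21.8, 86.9 and 152 CPM (log2 fold change 4.97 ± 0.55 (SE), adjusted p = 2.6e-05), the NADPH oxidase subunit NCF1 rose by 4.34 on the log2 scale, and the CXCL8 receptor CXCR2 by 2.71. LTF, AQP9 and ALOX5AP did not pass (log2 fold changes 1.92, 0.34 and 0.198), although AQP9 did with the animal as block (adjusted p = 0.0217).

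The summed level of neutrophil genes varied between wounds. The list summed to 72.7 to 131 CPM on day 0. At the edge it summed to 4819 CPM in wound A and 891 in wound L of animal 1, to 5405 and 1268 in animal 2, and to 1778 and 1481 in animal 3. S100A8 and S100A9, also made by stressed keratinocytes, are members of the list and were highest in the A wounds of animals 1 and 2. Wound A of animal 2, the highest, was at the same time the lowest edge library for the monocyte and macrophage list. It was also the highest edge library for the wound keratin sum (23041 CPM) and the basal epidermis sum (39412 CPM). The part of tissue content in this spread was not tested.

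Genes of signals that recruit neutrophils rose as well. Of 6 tested neutrophil-attracting chemokines and colony-stimulating factors, 5 were higher and 1 lower, with a median of 4.02. Next to CXCL8, CXCL2 rose from 2.52, 4.14 and 6.12 to 34.5, 151 and 587 CPM (log2 fold change 5.56 ± 0.67 (SE), adjusted p = 4.4e-05). Its model spans a long stretch of the contig and CXCL1, CXCL3, CXCL5 and CXCL6 were not found by name, so reads of these close relatives may be counted in it. PPBP, the platelet chemokine, had 1 count on day 0 and 591 at the edge, a ratio of 662 with a 95% counting interval of 118 to 26195. CSF1, the macrophage growth factor, rose by 1.65 and CSF3, the granulocyte growth factor, by 2.49 on the log2 scale. CXCL12, a homeostatic chemokine of dermal fibroblasts, fell from 29.3, 62.4 and 90.7 to 13.4, 22.6 and 40.4 CPM (log2 fold change -1.35 ± 0.29 (SE), adjusted p = 0.00207).

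The interleukin-1 and interleukin-6 families rose on both the agonist and the antagonist side. Among 20 genes tested, 14 were higher (13 with the block) and 1 was lower (0 with the block), with a median of 0.99 and 8 non-overlapping. On the agonist side stood IL1B, IL1A (log2 fold change 1.43 ± 0.32 (SE), adjusted p = 0.00229), IL36A (log2 fold change 5.31 ± 0.92 (SE), adjusted p = 4.8e-04), IL6 (log2 fold change 3.66 ± 0.76 (SE), adjusted p = 0.00153) and OSM (log2 fold change 3.81 ± 0.904 (SE), adjusted p = 0.00362), the last a keratinocyte-activating cytokine of myeloid cells. IL1RN, the receptor antagonist, rose from 12.1, 15.2 and 22.7 to 33.6, 103 and 221 CPM (log2 fold change 2.700 ± 0.41 (SE), adjusted p = 2.0e-04), and the decoy receptor IL1R2 rose by 1.07 on the log2 scale. SOCS3, the feedback inhibitor of interleukin-6 signaling, rose from 11.3, 16.2 and 31.3 to 62.96, 201 and 383 CPM (log2 fold change 3.43 ± 0.37 (SE), adjusted p = 2.4e-05). In contrast, IL36G, IL36RN, IL18 and LIF did not pass (log2 fold changes -0.97, -0.47, 0.12 and 0.39), and IL1F10, an epidermal family member also called IL-38, which the list of 20 does not hold, fell (log2 fold change -3.81 ± 0.59 (SE), adjusted p = 2.1e-04), also with the block.

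Scavenger and chemokine receptors of mononuclear phagocytes rose, whereas their C1q genes did not pass the test. Of 21 genes of the monocyte and macrophage list, 15 were higher (10 with the block) and 0 lower, with a median of 2.39. MARCO and MSR1, scavenger receptors, rose by 8.02 and 4.88 on the log2 scale, and the chemokine receptor CCR1 by 6.43, from 1.37, 1.82 and 2.58 to 46.5, 155 and 369.9 CPM. The monocyte co-receptor CD14 rose from 19.2, 24.2 and 31.3 to 57.8, 164 and 298 CPM (log2 fold change 2.73 ± 0.38 (SE), adjusted p = 1.0e-04). By contrast, the complement genes of resident tissue macrophages C1QA, C1QB and C1QC did not pass, with log2 fold changes of -0.299, -0.14 and -0.198, nor did VSIG4 (0.28) or MRC1 (0.82). CD163, the hemoglobin scavenger receptor, did (log2 fold change 2.39 ± 0.57 (SE), adjusted p = 0.00359, and 0.0587 with the animal as block).

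Most CC chemokines, which draw monocytes and lymphocytes, rose. Of 12 tested CC chemokines, 8 were higher and 2 lower (1 with the block), with a median of 3.81. CCL2, the monocyte attractant, rose from 4.25, 6.89 and 9.49 to 60.7, 145 and 414 CPM (log2 fold change 4.698 ± 0.45 (SE), adjusted p = 1.1e-05), CCL4 rose by 6.15 on the log2 scale, and CCL19, CCL20, CCL8, CCL5 and CCL22 by 4.13, 3.96, 3.85, 3.77 and 3.03. CCL26 fell (log2 fold change -1.36 ± 0.49 (SE), adjusted p = 0.0342) and so did CCL24 (log2 fold change -1.08 ± 0.32 (SE), adjusted p = 0.0118, and 0.0680 with the animal as block), both of which attract eosinophils. The constitutive CCL21 and CCL28 did not pass, at -0.52 and -0.28.

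T and NK cell genes were scarce but rose as a group. Of 16 tested genes, 15 were higher (10 with the block) and 0 lower, with a median of 2.87, and the list summed to 16.1 to 19.2 CPM on day 0 and 53.4 to 276 CPM at the edge. CD3E, a chain of the T cell receptor complex, had 0.794, 1.34 and 1.83 and 5.94, 10.4 and 20.5 CPM (log2 fold change 2.98 ± 0.31 (SE), adjusted p = 1.9e-05), and IL7R, the receptor of a survival cytokine, had 0.637, 0.943 and 2.798 and 5.404, 21.3 and 44.8 CPM (log2 fold change 4.11 ± 0.52 (SE), adjusted p = 5.8e-05). FOXP3, the factor of regulatory T cells, did not pass (log2 fold change 0.42 ± 0.46 (SE), adjusted p = 0.462).

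Adhesion molecules of activated vessels rose, while most general endothelial genes did not pass the test. Of 8 endothelial activation genes, 6 were higher with and without the block, with a median of 1.48. The leukocyte-catching selectins SELE and SELP rose from 1.67, 3.19 and 4.78 to 11.6, 26.2 and 82.2 CPM (log2 fold change 3.31 ± 0.44 (SE), adjusted p = 8.6e-05) and from 0.400, 1.06 and 2.58 to 4.86, 10.9 and 16.4 CPM (log2 fold change 2.93 ± 0.43 (SE), adjusted p = 1.4e-04), and the adhesion molecules ICAM1 and VCAM1 by 1.804 and 1.71 on the log2 scale. Of 16 genes that mark endothelial cells in general, 1 was higher and 2 were lower (0 and 0 with the block), and the median was -0.19. PECAM1, CDH5 and KDR stood at 0.39, -0.13 and -0.03.

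Interferon-stimulated genes rose nearly throughout their list. Of 20 interferon-stimulated genes, 19 were higher (18 with the block), 0 were lower, 17 were non-overlapping and the median was 2.18. IFIT2 rose from 5.08, 6.14 and 7.31 to 14.1, 73.3 and 219 CPM (log2 fold change 3.95 ± 0.53 (SE), adjusted p = 8.7e-05), ISG15, a ubiquitin-like modifier, from 8.83, 16.8 and 24.97 to 63.8, 101 and 462 CPM (log2 fold change 3.32 ± 0.49 (SE), adjusted p = 1.6e-04), and the antiviral GTPase MX1 by 3.09 on the log2 scale. Among the chemokines of this response, CXCL10 rose (log2 fold change 3.33 ± 0.45 (SE), adjusted p = 8.7e-05) while CXCL9 did not pass (log2 fold change 0.46 ± 0.49 (SE), adjusted p = 0.455). The list summed to 301 to 451 CPM on day 0 and 964 to 3073 CPM at the edge, with wound A of animal 1 highest and wound A of animal 2 lowest. Members of the IFIT, OAS and MX families have close copies whose reads can be split between them.

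**Figure D2:**
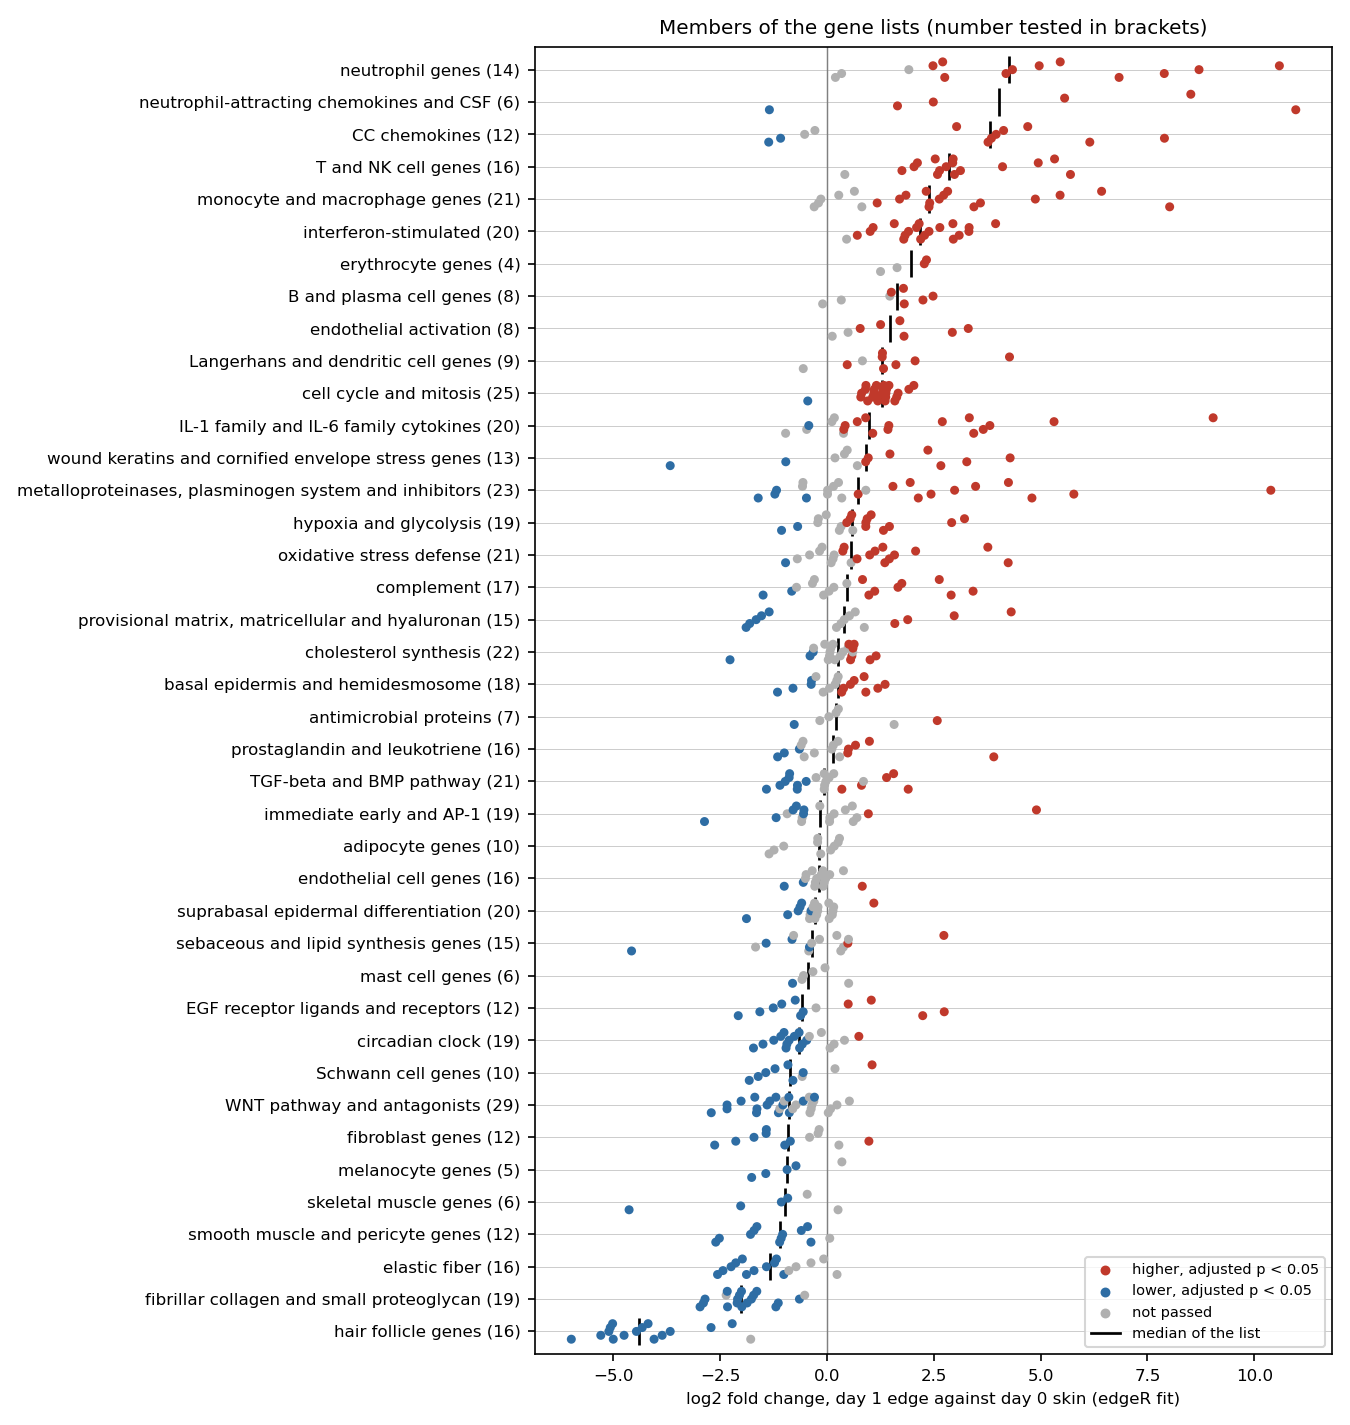
Log2 fold change of day 1 edge against day 0 skin (x axis, edgeR fit) for every tested member of the 40 gene lists (y axis, ordered by median), with 1 point per gene colored by call and a black line at each list's median. Neutrophil genes lead with a median of 4.26 and the hair follicle list closes with -4.39, while the cell cycle list runs from -0.45 to 2.03.

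In the epidermis, stress keratins rose steeply, single genes of the basal layer rose or fell by smaller amounts, and most suprabasal genes did not pass the test. Of 13 tested genes of the wound keratin and cornified envelope stress list, 7 were higher and 2 lower, also with the block, with a median of 0.91 and 8 non-overlapping. KRT6C, which pairs with KRT16 or KRT17 in activated keratinocytes, rose from 478, 899 and 995 to 4451, 8351 and 14038 CPM (log2 fold change 3.27 ± 0.303 (SE), adjusted p = 9.3e-06), and KRT6B from 52.4, 175 and 244 to 614, 1059.9 and 1689 CPM (log2 fold change 2.67 ± 0.37 (SE), adjusted p = 9.9e-05). KRT6A, KRT16 and KRT17 were not found by name, and reads of near-identical keratins may be shared between models. S100A2, an epidermal calcium-binding protein, rose from 88.6, 147 and 185 to 282, 794 and 1217 CPM (log2 fold change 2.36 ± 0.32 (SE), adjusted p = 8.4e-05). SFN, the epithelial 14-3-3 protein, and SERPINB3, a protease inhibitor of inflamed epithelium, rose by 0.97 and 4.29 on the log2 scale. The envelope genes IVL, TGM1 and TGM3 did not pass (0.47, 0.19 and 0.71). KRT80 fell (log2 fold change -0.96 ± 0.14 (SE), adjusted p = 1.7e-04), and so did KRT75, a companion layer keratin of the hair follicle (log2 fold change -3.67 ± 1.06 (SE), adjusted p = 0.0113).

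Of 18 genes of the basal layer and its hemidesmosomes, 8 were higher (5 with the block) and 4 lower (3 with the block), with a median of 0.25. Since 23.9% of all genes tested were lower (15.3% with the block) and 26.4% higher (17.3%), the falls are read as single genes. The model named KRT15 rose from 4894, 5671 and 7620.2 to 9173, 13686 and 20341 CPM (log2 fold change 1.19 ± 0.18 (SE), adjusted p = 2.1e-04). It spans positions 235046 to 316574 of its contig in a keratin gene cluster, and KRT14 was not found by name. In a single fit of all 150 samples, 1 of 21 alternatives, KRT15 missed the threshold (adjusted p = 0.357), and so did AQP3 (adjusted p = 0.0669). KRT5 overlapped between the groups (log2 fold change 0.55 ± 0.17 (SE), adjusted p = 0.0149, and 0.124 with the animal as block). Genes that keratinocytes use to move were among those that rose, although bulk RNA does not show which cells carried the rise. The fibronectin receptor ITGA5 rose from 47.6, 54.4 and 68.7 to 69.7, 108 and 166 CPM (log2 fold change 0.91 ± 0.18 (SE), adjusted p = 9.6e-04), and ITGA3 rose by 0.87 on the log2 scale. The hemidesmosome genes COL17A1, ITGB4 and PLEC did not pass (-0.26, 0.19 and 0.23), and DST, which encodes another hemidesmosomal plaque protein among its isoforms, fell (log2 fold change -1.16 ± 0.13 (SE), adjusted p = 2.4e-05).

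Of 20 suprabasal genes tested, 1 was higher (0 with the block) and 6 were lower (8 with the block), with a median of -0.29 and 2 non-overlapping. KRT1 and KRT10, the main keratins of the differentiating layers, did not pass (log2 fold change -0.21 ± 0.24 (SE), adjusted p = 0.484, and log2 fold change -0.28 ± 0.21 (SE), adjusted p = 0.283). KRT77, a keratin of sweat ducts, fell from 699.6, 1105 and 1779 to 184, 330.5 and 582 CPM (log2 fold change -1.88 ± 0.28 (SE), adjusted p = 1.5e-04), DMKN fell by 0.92 on the log2 scale, and the desmosomal DSC1 and CDSN fell by 0.63 and 0.59. KLK7, a desquamation protease, was the 1 member that rose (log2 fold change 1.097 ± 0.26 (SE), adjusted p = 0.00319, and 0.0589 with the animal as block). AQP3, the keratinocyte water and glycerol channel, rose from 473, 1076 and 1612 to 1936, 2998 and 3326 CPM (log2 fold change 1.38 ± 0.22 (SE), adjusted p = 2.6e-04), and its lowest edge library was wound L of animal 3.

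Receptors of the epidermal growth factor receptor family fell while some ligands of the family rose. Of 12 genes tested, 4 were higher and 7 lower (6 with the block), with a median of -0.59. Among the ligands, HBEGF, which drives keratinocyte migration, rose from 4.44, 10.6 and 16.8 to 41.5, 68.03 and 121 CPM (log2 fold change 2.74 ± 0.32 (SE), adjusted p = 3.5e-05), NRG1 rose by 2.24 and AREG by 1.04 on the log2 scale. In contrast, BTC and EREG fell by 1.57 and 1.06, EGF fell by 1.26 (adjusted p = 0.0545 with the block), and TGFA did not pass (-0.26). The receptors EGFR, ERBB2 and ERBB3 fell by 0.74, 0.62 and 0.56, and ERRFI1, their feedback inhibitor, rose by 0.497.

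Cell cycle genes rose almost without exception, 19 of 25 by at least 2-fold, against 8.85% of all genes tested. Of 25 tested genes of replication and mitosis, 24 were higher (21 with the block) and 1 was lower (0 with the block), 20 were non-overlapping and the median was 1.29. The list summed to 632 to 748 CPM on day 0 and 1431 to 1847 CPM at the edge, a narrow range in both groups. RRM2, the ribonucleotide reductase subunit made for DNA synthesis, rose from 24.7, 31.5 and 36.2 to 114, 137 and 155 CPM (log2 fold change 2.03 ± 0.11 (SE), adjusted p = 2.8e-07). The replication clamp PCNA rose by 1.63, the 6 MCM helicase subunits by 0.81 (MCM7) to 1.45 (MCM5), and the mitotic kinase AURKA by 1.67 on the log2 scale. The proliferation antigen MKI67 rose less and lost its call with the block (log2 fold change 0.902 ± 0.23 (SE), adjusted p = 0.00619, and 0.132 with the animal as block). CCND1, the cyclin of growth factor entry into the cycle, was the 1 member that fell (log2 fold change -0.45 ± 0.13 (SE), adjusted p = 0.0127, and 0.135 with the animal as block).

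Matrix-degrading enzymes and their inhibitors were more often higher than lower. Of 23 genes of the metalloproteinase and plasminogen list, 11 were higher and 4 lower, also with the block, with a median of 0.73 and 11 non-overlapping. All genes tested were higher in 26.4% and lower in 23.9% (17.3% and 15.3% with the block), so the falls are read as single genes. MMP9, the gelatinase of neutrophils and keratinocytes, rose from 2.19, 3.04 and 5.77 to 39.3, 194 and 383 CPM (log2 fold change 5.78 ± 0.52 (SE), adjusted p = 8.5e-06), the collagenase MMP13 and the macrophage elastase MMP12 rose by 4.797 and 3.48 on the log2 scale, and the aggrecanase ADAMTS4 by 2.99. PLAU, the urokinase that activates plasmin, rose from 24.3, 36.97 and 45.9 to 147, 172 and 187 CPM (log2 fold change 2.14 ± 0.14 (SE), adjusted p = 1.4e-06) and its receptor PLAUR by 2.44. Among the tissue inhibitors of metalloproteinases, TIMP1 rose from 26.2, 29.05 and 34.6 to 450.1, 574 and 775 CPM (log2 fold change 4.25 ± 0.17 (SE), adjusted p = 1.3e-08), whereas TIMP2 and TIMP3 fell by 1.22 and 1.61 and MMP2, the gelatinase of resting fibroblasts, fell by 1.18. MMP7 had 5.38, 11.6 and 16.5 CPM on day 0 and 2.78, 5.104 and 45.04 CPM at the edge, and its direction turned when wound A of animal 2 was left out (log2 fold change -1.08, adjusted p = 0.0388).

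Of 15 genes of the provisional matrix, 4 were higher and 5 lower, also with the block, and 7 were non-overlapping. Over all genes tested, 26.4% were higher and 23.9% lower (17.3% and 15.3% with the block), and 25.0% were non-overlapping. TNC, the matrix protein of healing margins, rose from 27.6, 44.3 and 56.8 to 247, 343 and 602 CPM (log2 fold change 2.98 ± 0.24 (SE), adjusted p = 4.5e-06). SPP1, osteopontin, and THBS1, thrombospondin, rose by 4.31 and 1.89 on the log2 scale, as did TNFAIP6, a hyaluronan cross-linker, by 1.59. In contrast, FN1, fibronectin, fell from 379, 445 and 744 to 52.5, 169 and 441 CPM (log2 fold change -1.53 ± 0.41 (SE), adjusted p = 0.00721), and POSTN, SPARC, CCN2 and THBS2 fell by 1.89, 1.81, 1.66 and 1.35. HAS2, the hyaluronan synthase, and its receptor CD44 did not pass (0.87 and 0.33).

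Genes of the settled dermal matrix fell together, against 23.9% of all genes tested that were lower. None of 19 genes of fibrillar collagens and small proteoglycans was higher, by the edgeR test with or without the block, and 17 were lower (16 with the block), 12 were non-overlapping and the median was -2.0. The edge lay below day 0 without overlap in 7.2% of all genes tested. COL1A1 fell from 12313, 19115 and 43542 to 1604, 5553 and 7436 CPM (log2 fold change -2.33 ± 0.41 (SE), adjusted p = 5.1e-04), COL1A2 from 10118, 16848 and 33891 to 1519, 4336 and 7068 CPM (log2 fold change -2.33 ± 0.402 (SE), adjusted p = 4.7e-04) and COL3A1 from 13963, 20455 and 36706 to 2240.0, 6052 and 10366 CPM (log2 fold change -2.05 ± 0.37 (SE), adjusted p = 6.7e-04). The proteoglycans OGN, ASPN and PRELP fell by 2.97, 2.89 and 2.85 on the log2 scale, and biglycan, BGN, by 0.64 (adjusted p = 0.176 with the block). The keratocan gene KERA, of the same family, fell by 4.36.

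Elastic fiber genes followed with 11 of 16 lower (10 with the block), 0 higher and a median of -1.32. MFAP4 fell from 184, 232 and 429.8 to 15.5, 41.1 and 98.3 CPM (log2 fold change -2.56 ± 0.38 (SE), adjusted p = 1.7e-04), the cross-linking enzyme LOX by 2.43 and elastin itself, ELN, by 1.98 on the log2 scale. FBN1, the scaffold of the microfibril, did not pass (-0.37).

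Marker genes of the cells of the dermis were mixed. Of 12 fibroblast genes, 7 were lower (5 with the block) and 1 higher, and the list summed to 3645 to 6064 CPM on day 0 and 1784 to 3233 CPM at the edge, without overlap. PI16, a marker of perivascular reserve fibroblasts, fell from 425, 631 and 1219.6 to 32.7, 121 and 194 CPM (log2 fold change -2.63 ± 0.43 (SE), adjusted p = 3.3e-04). The receptors PDGFRA and PDGFRB and the protease FAP, which are used to define fibroblasts, did not pass, at 0.28, -0.21 and -0.18. CFD, a complement protease also made by fat cells, was the 1 member that rose (0.98). Smooth muscle and pericyte genes were lower in 11 of 12 (9 with the block), with a median of -1.09. MYH11, the smooth muscle myosin, fell from 286, 342 and 532 to 43.7, 54.9 and 147 CPM (log2 fold change -2.601 ± 0.301 (SE), adjusted p = 3.4e-05), ACTA2 by 1.71 and the pericyte gene RGS5 by 1.64 on the log2 scale. The lowest collagen, elastic fiber and fibroblast sums among the edge biopsies were all those of wound A of animal 2. The part of tissue composition in the falls of dermal genes was not tested.

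**Figure D3:**
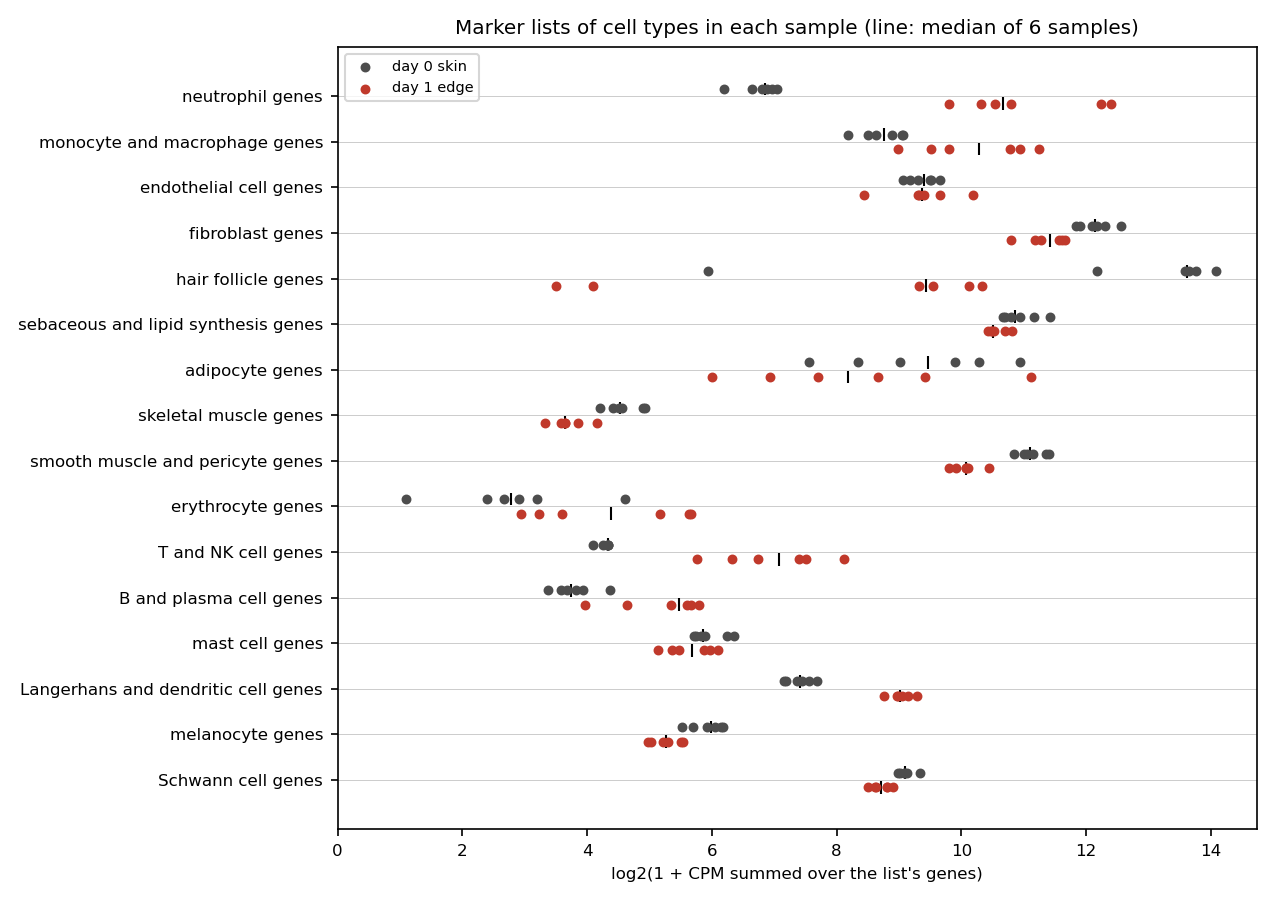
Summed CPM of 16 marker lists of cell types, as log2(1 + sum) on the x axis, with 1 point per sample for day 0 skin (grey) and the day 1 edge (red) and a line at the median of 6 samples. Neutrophil, T and NK cell and Langerhans and dendritic cell sums lie above day 0, endothelial sums overlap, and the hair follicle sum of 1 day 0 sample and of 2 edge samples lies far below the rest.

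Hair follicle genes had the lowest median of the 40 lists and were unequal between biopsies of a group. Of 16 tested genes, 15 were lower (7 with the block), 0 higher and the median was -4.39, but in 0 of 16 did the groups separate. The follicle keratin KRT27 had 6.57, 4729 and 6357 CPM on day 0 and 0.236, 267 and 605 CPM at the edge (log2 fold change -3.86 ± 1.504 (SE), adjusted p = 0.0468, and 0.358 with the animal as block), and KRT71 had 10.05, 4257 and 5729 and 0, 183 and 510.1 CPM (log2 fold change -4.04 ± 1.54 (SE), adjusted p = 0.0421, and 0.315 with the animal as block). The low day 0 value of both was that of animal 2, and the fit with the block rests on animals 1, 2 and 3 alone. When 1 library was left out, KRT27 lost its call in 9 of 12 fits and KRT71 in 8 of 12. The list sum at the edge was 16.00 and 10.4 CPM in the L wounds of animals 2 and 3 and between 639 and 1290 CPM in the other 4. Without the day 0 skin of animal 2, still 15 of 16 genes were lower, with a median of -4.65, and 10 separated completely (KRT27: log2 fold change -4.12 ± 1.32, adjusted p = 0.0215). The hair shaft keratin KRT85 fell by 5.0 and trichohyalin, TCHH, by 4.46 on the log2 scale in the fit of all 12 samples (TCHH: adjusted p = 0.198 with the block). How many follicles each biopsy held was not recorded in the sources used here, and its part in these falls was not tested.

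Genes of the WNT pathway, which keeps follicles growing, fell as well. Of 29 genes, 0 were higher and 16 lower (13 with the block) by the edgeR test, with a median of -0.89. WNT11 fell by 2.71, the stem cell receptor LGR5 from 29.4, 35.2 and 54.2 to 1.46, 5.91 and 15.6 CPM (log2 fold change -2.34 ± 0.44 (SE), adjusted p = 7.7e-04), and LEF1, the nuclear partner of β-catenin in the hair matrix, by 2.34 (adjusted p = 0.123 with the block). Without the day 0 skin of animal 2, LGR5 fell by 2.39 and LEF1 by 2.59. Antagonists fell as well, DKK2 by 2.01 and SFRP1 by 1.400. The co-receptor LRP6 and the ligands WNT4 and WNT10A did not pass (-0.35, -0.41 and 0.03).

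Under the same limits on level and overlap, the 12 genes with the steepest falls had log2 fold changes from -5.17 to -3.38, and all 12 passed with the animal as block. Several hair follicle genes fell as far or further but overlapped between the groups. PIP, the prolactin-induced protein of sweat and other apocrine secretions, had 24.6, 128 and 338 CPM on day 0 and 0, 0.228 and 23.3 CPM at the edge (log2 fold change -5.17 ± 1.24 (SE), adjusted p = 0.00381). FMO2, a flavin monooxygenase, had 41.5, 49.4 and 62.8 and 0.862, 2.15 and 5.44 CPM (log2 fold change -4.32 ± 0.42 (SE), adjusted p = 1.2e-05). The amino acid transporter SLC38A3 fell by 5.15, the carbonic anhydrase CA3 of fat and muscle by 4.16, ANGPTL1, a secreted vessel-quieting factor, by 3.76, the anion exchanger SLC26A4 by 3.64, and CAPN12, a calpain of the hair follicle, by 3.55 on the log2 scale. CYP7A1, TBC1D30 and CHD5 fell by 4.08, 3.97 and 3.38. The name CYP7A1, that of the bile acid enzyme of the liver, is the table's own.

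Genes of glycolysis rose, but several other genes of the hypoxia list did not. Of 19 tested genes of hypoxia and glycolysis, 11 were higher (9 with the block) and 2 lower (1 with the block), with a median of 0.58 and 8 non-overlapping. The glucose transporter SLC2A3 rose from 13.1, 17.03 and 25.97 to 41.7, 162 and 390.5 CPM (log2 fold change 3.22 ± 0.48 (SE), adjusted p = 1.8e-04), the lactate exporter SLC16A3 by 2.92, and LDHA, which makes lactate, from 174, 208 and 282 to 402, 625 and 933 CPM (log2 fold change 1.46 ± 0.19 (SE), adjusted p = 6.2e-05). The enzymes ENO1, PGK1, PGAM1 and GAPDH rose by 0.91 to 1.03 on the log2 scale. Among the other members, VEGFA, ADM, NDRG1 and ANKRD37 did not pass (0.605, 0.33, -0.02 and -0.201) and BNIP3 and EGLN3 fell by 1.06 and 0.69, the latter not with the block (adjusted p = 0.0540).

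Defense against oxidants rose in 12 of 21 genes (8 with the block) and fell in 1, with a median of 0.57. SOD2, the inducible mitochondrial dismutase, rose from 95.00, 105 and 124 to 861, 1427 and 2268 CPM (log2 fold change 3.76 ± 0.22 (SE), adjusted p = 4.4e-07) and HMOX1, which degrades heme, from 8.91, 18.9 and 24.9 to 129, 256 and 816 CPM (log2 fold change 4.24 ± 0.51 (SE), adjusted p = 4.3e-05). Peroxiredoxin PRDX1 and thioredoxin TXN rose by 1.35 and 1.58 on the log2 scale, whereas PRDX6 fell by 0.97. GCLC and GCLM, which make glutathione, TXNRD1 and NQO1 did not pass (-0.17, 0.17, -0.11 and 0.57). The iron store FTH1, for which the table holds 6 models, rose by 1.22 and the cytoplasmic actin ACTG1 by 0.58.

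Most immediate early genes, a class that peaks within the hour after injury, did not pass the test. Of 19 tested, 2 were higher (1 with the block), 6 were lower (4 with the block) and 11 did not pass, with a median of -0.17. Over all genes tested, 26.4% were higher and 23.9% lower (17.3% and 15.3% with the block), and the members are read as single genes. FOSL1, the late AP-1 member of migrating keratinocytes, rose from 0.359, 0.876 and 3.08 to 32.4, 45.5 and 62.2 CPM (log2 fold change 4.902 ± 0.48 (SE), adjusted p = 1.2e-05), while FOSB fell from 24.8, 116 and 275 to 6.54, 13.5 and 38.8 CPM (log2 fold change -2.87 ± 0.55 (SE), adjusted p = 8.9e-04) and KLF4 by 1.19 on the log2 scale. FOS and EGR1 did not pass (-0.93 and -0.59). Day 0 skin was itself excised tissue, and its interval from cutting to preservation is not given in the sources used here.

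Clock genes fell in 13 of 19 (13 with the block) and rose in 1, with a median of -0.65. The repressor NR1D1 fell by 1.72, CRY2 by 1.496, DBP by 1.24 and PER1 by 0.94 on the log2 scale, NFIL3 rose by 0.75, and CLOCK and ARNTL did not pass (0.07 and -0.41; ARNTL passed with the block, adjusted p = 0.0334). Since no clock time is given for either day, the hour of sampling and wounding cannot be told apart for these genes.

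To find which of these genes differed between the locations, the edge was set against the center of the same 6 wounds, without pairing the biopsies of a wound. Of 14432 genes tested, 6731 (46.6%) differed, 3463 (24.0%) above the center and 3268 (22.6%) below it. With the wound as block, 6691 differed, 3412 above and 3279 below. The values that follow are those without pairing. Cell cycle genes were above the center in 24 of 25 with a median log2 difference of 2.03, suprabasal genes in 19 of 20 (median 3.77) and wound keratin genes in 11 of 13 (median 3.95). The cell cycle sum of the center, 349.7 to 843 CPM, covered the day 0 range, whereas the wound keratin sum of the center, 1729 to 4944 CPM, lay around or below it. Neutrophil genes were above the center in 4 of 15 and below it in 3, near the shares of all genes. Of the 12 genes that led the rise against day 0, MMP1, S100A8, S100A9 and LPO were above the center (log2 differences 3.89, 2.901, 2.503 and 4.57) and 0 below. CXCL8 and IL1B differed by -0.303 and -0.59 (adjusted p = 0.752 and 0.427).

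Other lists were weaker at the edge than in the center. Interferon-stimulated genes were below the center in 14 of 20 (median -1.23), monocyte and macrophage genes in 7 of 21 (median -1.16), endothelial genes in 16 of 16 (median -1.78) and adipocyte genes in 10 of 10 (median -4.07). Collagens and small proteoglycans were below the center in 9 of 19 and elastic fiber genes in 10 of 16, although COL1A1, COL1A2 and COL3A1 themselves did not pass (0.23, 0.39 and -0.15). The center libraries held little epidermal and much fat RNA, since their suprabasal sum was 131 to 17994 CPM, with 1 library far above the other 5, and their adipocyte sum 6278 to 21074 CPM against 63.03 to 2217 at the edge. The center of wound L of animal 3 also held 14245 CPM of skeletal muscle genes, against 12.8 to 47.6 CPM in the other 5. Tissue content moved with the differences between the locations, and its part in them was not tested.

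Few genes separated the day 1 edge from that of day 2, and the count was unstable. Between the day 1 edge and the day 2 edge, which came from animals 4, 5 and 6, 226 of 14545 genes (1.55%) passed, with 70 higher on day 1 and 156 lower. Of the genes that led the rise, CXCL8 had a day 2 median of 137 CPM against 249 CPM on day 1, IL1B had 11.3 against 31.2 CPM, MMP1 had 289 against 616 CPM and S100A9 had 562 against 616 CPM. The count rested on single libraries, falling to 0 without wound A of animal 1 or either wound of animal 2 (and without several day 2 libraries) and rising to 1611 without wound L of animal 3. With 1 value per animal it was 0 of 15891 by the edgeR test, with 2717 genes at an unadjusted p below 0.05. The day and the set of animals cannot be told apart.

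**Figure D4:**
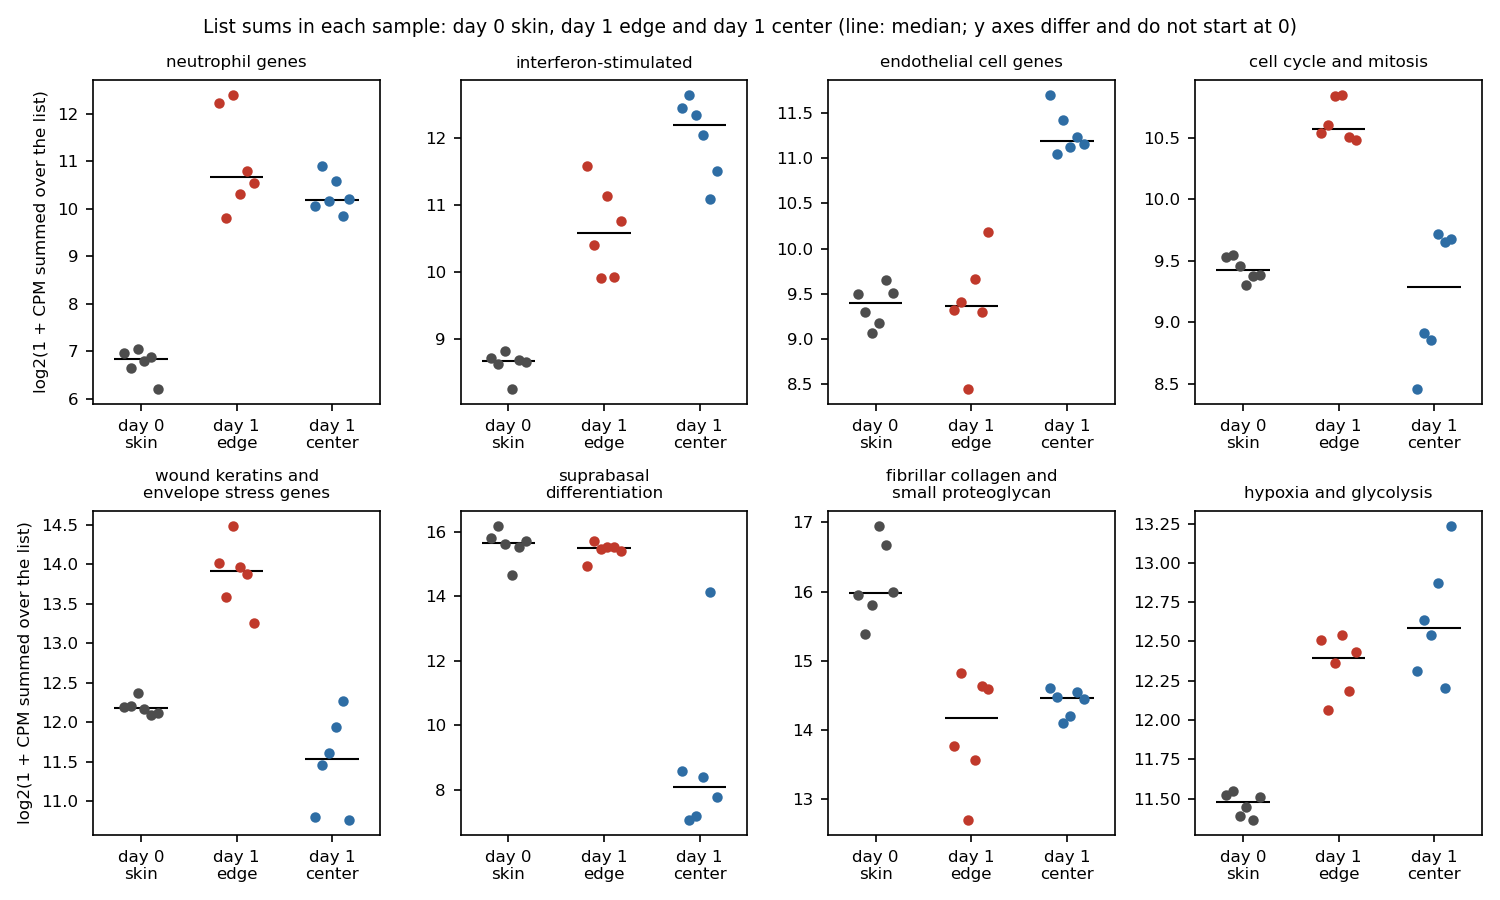
Summed CPM of 8 gene lists as log2(1 + sum) on the y axis, 1 point per sample, for day 0 skin (grey), day 1 edge (red) and day 1 center (blue), 6 samples each, with lines at the medians and y axes that differ and do not start at 0. Cell cycle and wound keratin sums are highest at the edge, interferon-stimulated and endothelial sums are highest in the center, and suprabasal sums are lowest in the center, where 1 of 6 samples lies far above the other 5.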

How the data were processed

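RNA of 150 pig skin and wound samples was sequenced after poly-A enrichment as paired reads by a service provider, and the authors deposited a table of gene counts, which are raw reads per gene and not normalized. A second table of FPKM values was not used here. Aligner, annotation version, strand setting and genome build are not given in the sources used here. The table itself names 12300 genes, a further 9387 were named here by matching their protein description to reference gene names, and 8774 stayed without a symbol. Overlapping and antisense genes cannot be told apart. Some list members are counted but not reported here by name.

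Day 1 edge and day 0 skin (6 against 6) were compared with edgeR 4.0.16 in R 4.3.3, using TMM scaling, filterByExpr (minimum count 10, total 15), the quasi-likelihood test and Benjamini-Hochberg adjustment over all 14667 genes at 0.05. The same test was applied to edge against center and against the day 2 edge. In the study's methods no test for such comparisons is given. CPM values printed used raw library totals, without TMM factors. Nothing in the labels says that the samples of a group are separate experiments beyond the animal and wound, so p-values measure the spread between these samples.

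The gene lists (40, with 590 genes tested) and the comparison were chosen with earlier results of these data known. Genes named are the 12 steepest per direction among non-overlapping genes with a mean log2 CPM of at least 3, the 6 with the largest difference in mean CPM per direction, KRT10 and IL1B, and list members that changed most, define the list or went against it. Some genes stand in more than 1 list. Where several genes share a symbol, the most abundant stands for it.

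Pairing was checked because animals 1, 2 and 3 gave both skin and wounds: the deviations of the 2 wounds of an animal from the group mean correlated at -0.43 to -0.27 (3 pairs), against -0.67 to 0.40 for wounds of different animals (12 pairs, mean -0.16), and those of skin and wound of an animal at -0.21 to 0.47 (6 pairs), against -0.30 to 0.26 for different animals (30 pairs). Deviations from a mean of 6 correlate below 0 without any pairing. The alternatives were the animal as block, 1 value per animal, 1 wound position, day 0 of animals 1 to 3 only, all 150 samples, no TMM, no filter, DESeq2 1.42.0 and leaving out each library. Data were simulated as independent samples with 200 of 14667 genes changed. Means and spread came from the day 0 libraries and totals from all 12. In these data edgeR found 79% of 2-fold and 95% of 4-fold changes, with 5.95% false calls, and DESeq2 found 84% and 96% with 17.4% false calls. The wider spread at the edge, the 2 wounds per animal and the large share of changed genes were not simulated. These rates may therefore not hold for the comparison itself. The intervals and floors cover counting error only.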

Additional observations from a re-analysis of the deposited data

Results flagged for a closer look

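In 14 of 158 groups of 6 values tested, 1 sample lay far from the other 5, measured as its gap to the nearest other value divided by the whole range. Chance alone flags about 1 in 20 groups, or 7.9 here. Most of these values sat in day 0 skin. Animal 2 stood apart for its mean Pearson's r with the other day 0 samples (gap ratio 0.790), for the summed hair follicle genes (0.765) and for the follicle keratins KRT27 (0.838) and KRT71 (0.823), lower in each. Animal 4 was low for the interferon-stimulated list (0.649), animal 5 high for the TGF-beta and BMP list (0.736), and animal 6 low for the T and NK cell list (0.674) and high for LPO (0.633). ACOD1 was above 0 in animal 1 alone (ratio 1), and CXCL8 was highest in animal 3 (0.651), both at a few counts. At the edge, wound L of animal 2 was high for the immediate early list (0.643), wound A of animal 3 high for SLC38A3 (0.670), wound L of animal 1 high for KERA (0.626) and wound L of animal 3 low for AQP3 (0.706).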

How the results depend on the processing

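With the animal as a replicate block in a paired fit, the called genes numbered 4774 instead of 7379, with 2536 higher and 2238 lower, and 97 of the 611 genes named or listed lost their call. Of the 4774, 4646 were called without the block too. With day 0 restricted to animals 1 to 3, 2128 genes were lower instead of 3506. Leaving out 1 library gave 6728 to 7513 called genes, DESeq2 gave 7801 and 1 value per animal 6899. With all 150 samples in one fit the median of all genes moved to -0.11 and 7020 genes were called, 3198 of them higher. Of the genes tested in both fits, none called in the 12 samples turned its direction in an alternative that was run. MMP7, not called, was at 0.02 and turned to -1.75 with wound L only and to -1.08 without wound A of animal 2, with -1.08 to 0.26 over the fits that left out 1 library. Day 1 against day 2 edge gave 0 genes with 1 value per animal and 0 to 1611 without 1 library. Summed cell type lists were tested by permuting the samples, with adjustment over all 40 lists. The sebaceous list passed 0.05 with all 12 samples but missed it with 1 value per animal (log2 difference -0.38), and the erythrocyte list did the reverse (1.91 with 1 value per animal). The hair follicle list missed it with all 12 samples (permutation test, adjusted p = 0.0577). Without the day 0 skin of animal 2 its log2 difference was -5.63, with an unadjusted permutation p of 0.0022, the smallest that this test can give. These alternatives were chosen after the data were seen. The causes were not tested. Edge against center gave 5018 to 6507 genes without 1 wound. Depth limited genes with a few counts on day 0, whose fold changes depend on single reads.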

Other observations

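Over all genes tested, 26.4% were higher and 23.9% lower. Of 9 Langerhans and dendritic cell genes, 7 were higher at the edge (5 with the animal as block) and 0 lower, with a median log2 fold change of 1.299. CCR7, the receptor that guides dendritic cells to lymph nodes, rose from 0.327, 0.576 and 1.26 to 7.24, 12.7 and 19.2 CPM (log2 fold change 4.27 ± 0.38 (SE), adjusted p = 7.3e-06), whereas CD207, the defining gene of Langerhans cells, did not pass (-0.55). Of 17 complement genes, 8 were higher (6 with the block) and 2 lower (0 with the block). The anaphylatoxin receptors C5AR1 and C3AR1 rose by 3.42 and 2.63 on the log2 scale and C3 by 1.66. Of 16 genes of prostaglandins and leukotrienes, 5 were higher and 3 lower (2 with the block). Without the block these shares lay near those of all genes. TBXAS1, which makes thromboxane, rose by 3.904, and PTGS2, the inducible cyclooxygenase, did not pass (log2 fold change 0.298 ± 0.41 (SE), adjusted p = 0.569). Of 7 antimicrobial genes, 1 was higher and 1 lower (0 with the block). The gene that rose was LCN2, which binds bacterial iron carriers (log2 fold change 2.58 ± 0.44 (SE), adjusted p = 4.2e-04), while SLPI and DEFB1 did not pass (0.27 and -0.17).

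The next 3 lists gave counts that are read as values of single genes, since most of their shares lay near those of all genes tested (26.4% higher, 23.9% lower). Of 21 genes of the TGF-beta and BMP pathway, 5 were higher (3 with the block) and 8 lower (4 with the block). TGFB1 rose from 26.6, 30.00 and 38.6 to 63.6, 95.1 and 138 CPM (log2 fold change 1.56 ± 0.19 (SE), adjusted p = 4.8e-05), TGFB2 fell by 1.099 on the log2 scale and TGFB3 did not pass (-0.02). INHBA, the activin subunit, rose (log2 fold change 1.902 ± 0.42 (SE), adjusted p = 0.00225, and 0.0596 with the animal as block), while INHBB fell by 1.42. Of 22 cholesterol synthesis genes, 7 were higher (2 with the block) and 3 lower (1 with the block). HSD17B7, an enzyme of the pathway, rose by 0.64 on the log2 scale. Of 15 sebaceous and lipid synthesis genes, 2 were higher and 4 lower (2 with the block). The desaturase SCD fell by 1.42 on the log2 scale and SOAT1, which esterifies cholesterol, rose by 2.74.

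The lists that follow stand against 26.4% of all genes tested that were higher and 23.9% lower (17.3% and 15.3% with the block). Of 10 Schwann cell genes, 7 were lower (5 with the block) and 1 higher (0 with the block), with NGFR, the low-affinity neurotrophin receptor, at -1.21. Of 5 tested melanocyte genes of 10 listed, 4 were lower (2 with the block), and TYR, TYRP1 and MLANA were too low to test. Of 8 B and plasma cell genes, 5 were higher (1 with the block). Of 6 mast cell genes, 1 was lower (0 with the block), and of 10 adipocyte genes 0 were called by the edgeR test in any direction, with a summed level of 188 to 1962 CPM on day 0 and 63.03 to 2217 CPM at the edge. Of 4 tested erythrocyte genes, 2 were higher (0 with the block), with sums of 1.14 to 23.3 and 6.65 to 49.9 CPM. Of 6 tested skeletal muscle genes, 4 were lower (2 with the block).

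Of the 12 genes that led the rise under the limits on level and overlap, not all peaked on day 1. Over the 14 sampled days, the median edge level was highest on day 1 for ACOD1, CCL3, MMP1 and SDS. Of the 12 genes that led the fall under the same limits, 5 had their lowest edge median on day 1. Days were sampled from alternating sets of 3 animals, so that days and animals cannot be told apart for these medians.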
